A study of Mus musculus with 10 samples.

Results

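The transcriptome of c-MYC liver tumors was compared with that of tumors in which an active form of FOXO1 had been delivered with the oncogene. The genes were those of the table with at least 1 FPKM (a count of fragments scaled by gene length and library size) in at least 3 of the 6 tumor libraries, which gave 13052 of 16697 listed genes. The comparison set 3 c-MYC/FOXO1AAA libraries against 3 c-MYC libraries, and 4 libraries of normal liver (NL) serve as the reference level. Both kinds of tumor were raised in mice by hydrodynamic injection into the tail vein. The pressure of the injected plasmid solution carries it into hepatocytes, where a Sleeping Beauty transposase inserts the constructs into the genome. All tumor mice received c-MYC in the vector pT3-EF1α. The c-MYC group was given the empty vector in addition, though 1 description of such controls in the study adds MCL1 and the series' design text names c-MYC/MCL1 tumors, so that the group is called here as its labels have it, and the c-MYC/FOXO1AAA group was given MYC-tagged FOXO1AAA in the same vector. The labels record all animals as WT and C57BL/6, whereas the extraction note and the methods of the study name FVB, and the age of the animals and the time of harvest of these samples were not given in the labels. The EF1α promoter is active in most cell types, so that restriction to hepatocytes rests on the route of delivery. Each library is bulk tissue, in which fewer cells of a type and less RNA per cell cannot be told apart. Nothing in the labels states that the libraries of a group came from separate mice, and p-values measure only the spread between these libraries.

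FOXO1 is a forkhead transcription factor that binds DNA in the nucleus and is sent to the cytoplasm when AKT phosphorylates it after insulin or growth factor signals. In FOXO1AAA the phosphorylated residues are replaced by alanine, so the protein stays nuclear and active. In liver FOXO1 is known for driving glucose production in fasting, and in muscle for the genes of protein breakdown. c-MYC drives cell growth, ribosome production and division. The question put to these libraries was how the transcripts of a c-MYC tumor change when FOXO1 cannot be switched off.

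The libraries held 13123719 to 17031480 reads in NL, 14189660 to 14998307 in c-MYC and 13477131 to 20547746 in c-MYC/FOXO1AAA. A level below is the deposited FPKM, which includes a small prior count, which keeps unread genes slightly above 0. Values of 3 libraries are given in the order 1, 2 and 3. One library stood apart in part of the results. For 1110 of the 1660 genes called lower, c-MYC/FOXO1AAA 3 was the highest of its group, with a median of 0.366 on the log2 scale above the other two. Without this library 2019 genes were higher and 1727 lower.

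Foxo1 itself lies on chromosome 3, 52268336 to 52353221, plus strand (GRCm38). It was measured at 5.26, 6.46 and 5.17 FPKM in c-MYC and 95.6, 83.6 and 70.1 FPKM in c-MYC/FOXO1AAA (log2 fold change 3.88, SE 0.15, limma adjusted p 2.7e-06), against 6.69 to 7.87 FPKM in NL. The groups lay far apart, and every c-MYC library was below NL. Counts by gene do not tell the transgene from the native gene. The other measured family members were not called higher. Foxo3 was at 24.5, 31.4 and 25.2 FPKM in c-MYC and 24.8, 28.4 and 22.5 FPKM in c-MYC/FOXO1AAA and was not called (log2 fold change -0.10, SE 0.14, limma adjusted p 1). Foxo4 fell, from 17.4, 22.8 and 17.1 FPKM to 7.46, 8.32 and 9.58 FPKM (log2 fold change -1.17, SE 0.16, limma adjusted p 0.014), and lost the call without c-MYC/FOXO1AAA 1 and after scaling to the same FPKM total. Foxo6, Mycn and Mycl were under the minimum level. Mouse Myc, at 0.561, 0.699 and 1.05 FPKM in c-MYC and 0.964, 1.11 and 0.876 FPKM in c-MYC/FOXO1AAA, was also under it, and the sources do not say where transgene reads were counted. Mcl1, a survival factor of the BCL2 family, was at 248, 251 and 235 FPKM in c-MYC and 163, 155 and 158 FPKM in c-MYC/FOXO1AAA. Cenpm, a kinetochore protein, was at 37.9, 32.7 and 40.9 FPKM in c-MYC and 20.9, 25.4 and 26.4 FPKM in c-MYC/FOXO1AAA. For both the groups did not overlap, but the difference did not pass the test for a change above 1.5-fold (limma adjusted p 0.75 and 0.86). Without the fold threshold both were called lower (limma adjusted p 0.000861 and 0.00563).

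FOXO1AAA tumors differed widely from c-MYC tumors in this comparison. The test was limma treat, 2-sided, for a change above 1.5-fold, with a Benjamini-Hochberg adjusted p under 0.05 over all 13052 genes. It called 2098 genes higher (16.1%) and 1660 lower (12.7%) in c-MYC/FOXO1AAA, together 28.8% of the genes. These shares are the background for every count of a gene list below. A high adjusted p means that a change above 1.5-fold was not shown, not that the groups were alike. The 3758 called genes were all among the 64.9% of genes whose groups did not overlap (33.2% above and 31.7% below c-MYC). The median log2 fold change over all 13052 genes was 0.01. It was 2.63 in the higher genes and -1.999 in the lower genes. Gains reached further than losses. Of the higher genes 882 had a fitted change of at least 8-fold and 116 of at least 100-fold, against 419 and 5 of the lower genes. Many gained genes were close to silent without FOXO1AAA. Of the 2098, 1084 averaged under 1 FPKM in c-MYC and 114 had no read in any c-MYC library. A gene that passed the minimum level only through c-MYC/FOXO1AAA had to differ, so these counts are a description. Summed over genes, the 2098 higher genes rose from 10112 FPKM in c-MYC to 45573 FPKM in c-MYC/FOXO1AAA, and the 1660 lower genes went from 122070 to 35361 FPKM. When every library was scaled to the same FPKM total, the median of all genes moved to 0.181 and the calls to 2420 higher and 1389 lower.

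**Figure D1:**
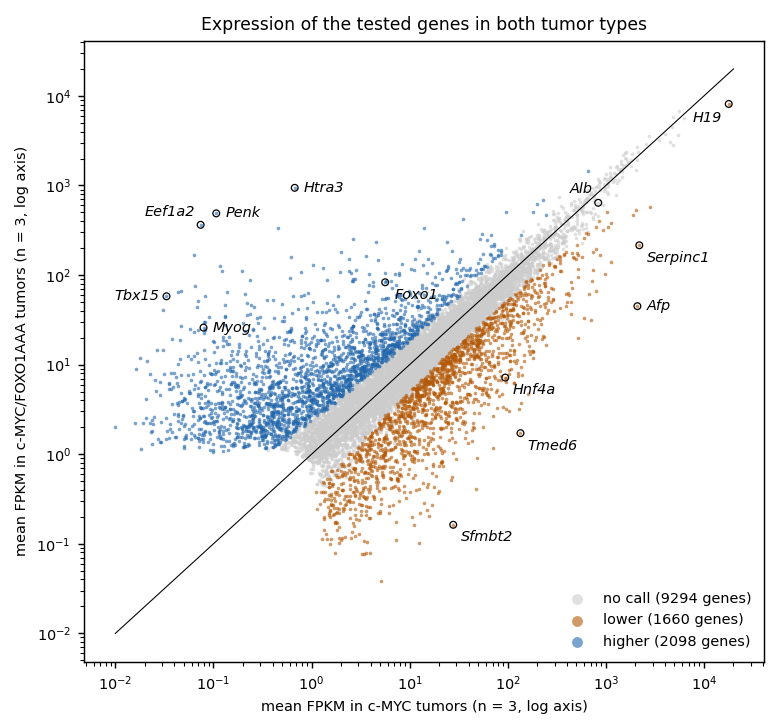
Mean FPKM of each tested gene in c-MYC (horizontal, n = 3) and c-MYC/FOXO1AAA (vertical, n = 3) on log axes, with 2098 genes called higher and 1660 called lower in color and the others in gray. The gained genes reach down to the floor of c-MYC at the left, and the lost genes reach up to above 1000 FPKM.

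Gained and lost genes differed in their level in normal liver. Of the 1975 tested genes under 1 FPKM in NL, 45.9% were higher and 9.62% lower, with a median log2 fold change of 1.13. Of the 1185 genes between 100 and 1000 FPKM in NL, 7.68% were higher and 26.8% lower. Among the 135 genes of at least 1000 FPKM in NL, which are the most abundant liver transcripts, 24 were higher and 51 lower. The 51 lower genes stood at a median of 16.7% of the NL level in c-MYC and at 2.80% in c-MYC/FOXO1AAA, whereas the 24 higher genes stood at 0.176% and 1.14%. Lower genes had thus kept more of their normal level in c-MYC than higher genes, a description in which the c-MYC values enter both the share and the fold change. In all 1676 of the 2098 higher genes exceeded every NL library.

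Known targets of FOXO1 responded in part. Of 43 listed targets with values, 40 were tested, and 15 were higher, 6 lower and 19 not called, beside 16.1% higher and 12.7% lower among all genes, with a median of 0.30. Pdk4, the kinase that shuts off pyruvate dehydrogenase, went from 0.0653, 0.03399 and 0.143 FPKM in c-MYC to 19.8, 22.7 and 24.5 FPKM in c-MYC/FOXO1AAA (log2 fold change 8.35, SE 0.49, limma adjusted p 1.3e-05). Trim63 and Fbxo32 encode the muscle ubiquitin ligases MuRF1 and atrogin-1. Trim63 had 0, 0 and 2 reads in c-MYC and 11.9, 9.38 and 13.6 FPKM in c-MYC/FOXO1AAA, a scaled read ratio of 606 (95% counting interval 168 to 5000.4) (limma adjusted p 5.3e-06). Fbxo32 was at 0.283, 0.192 and 0.368 FPKM in c-MYC and 4.59, 5.11 and 5.17 FPKM in c-MYC/FOXO1AAA (log2 fold change 4.19, SE 0.30, limma adjusted p 4.3e-05). Growth arrest genes were in the gained group, with Gadd45g at 0.642, 0.814 and 1.21 FPKM in c-MYC and 39.5, 52.04 and 38.1 FPKM in c-MYC/FOXO1AAA (log2 fold change 5.64, SE 0.25, limma adjusted p 3.9e-06). Ccng2, an atypical cyclin, was at 12.96, 14.6 and 12.95 FPKM in c-MYC and 77.8, 64.8 and 73.7 FPKM in c-MYC/FOXO1AAA (log2 fold change 2.42, SE 0.11, limma adjusted p 1.1e-05). In each case the lowest c-MYC/FOXO1AAA library was above the highest c-MYC library. Gadd45a, the mTORC1 brakes Sesn1 and Sesn3, the transcription cofactor Cited2, the proapoptotic Bcl2l11 and the pocket protein Rbl2 were also higher, with log2 fold changes from 1.36 for Rbl2 to 2.86 for Gadd45a. The targets of glucose production did not move together. Pck1, the entry enzyme of gluconeogenesis, rose from 0.741, 0.364 and 1.84 FPKM to 5.79, 11.7 and 6.54 FPKM (log2 fold change 3.27, SE 0.59, limma adjusted p 0.0066) and remained far under the 1274 to 1623 FPKM of NL. G6pc, the last enzyme, was at 5.17, 3.55 and 11.1 FPKM in c-MYC and 1.11, 0.937 and 5.77 FPKM in c-MYC/FOXO1AAA, with overlapping groups (limma adjusted p 0.28, called lower without c-MYC/FOXO1AAA 3), and Igfbp1, an insulin-repressed secreted protein, also overlapped. Cdkn1b, the cell cycle inhibitor p27, was at 44.01, 37.95 and 37.96 FPKM in c-MYC and 42.96, 38.3 and 34.9 FPKM in c-MYC/FOXO1AAA and was not called. The 6 lower targets were the lipoprotein loading protein Mttp, the mitochondrial fatty acid importer Cpt1a, the insulin receptor substrate Irs2, the antioxidant enzymes Cat and Sod2, and Bnip3, which has a role in mitophagy. Mttp fell most, with 84.5, 119 and 102 FPKM in c-MYC and 4.504, 5.07 and 16.5 FPKM in c-MYC/FOXO1AAA (log2 fold change -3.80, SE 0.48, limma adjusted p 0.0013). Irs2 lost its call without c-MYC/FOXO1AAA 1 or 2, and Bnip3 without c-MYC 1, c-MYC 3, c-MYC/FOXO1AAA 2 or c-MYC/FOXO1AAA 3.

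Sequence before the start of these genes was read from RefSeq promoters of GRCm38.p6, of which 250 bases before the start site were searched on both strands, and 9580 of the 13052 tested genes had one. The FOXO site searched was GTAAACA, or TGTTTAC on the other strand. It was present before 3.01% of 1562 higher genes with a promoter, 2.88% of 1252 lower genes, 2.69% of 6766 genes with no call and 3.54% of all 27025 genes in the promoter table. Among the 13 higher FOXO1 targets with a promoter it was present in 2, Trim63 and Bcl2l11, of which the 100 bases around the site are shown with the site in capitals, 5′ to 3′ on the strand of the gene (build GRCm38.p6). The Trim63 promoter also holds the letters of the myogenic motif given further on.
Trim63 (chr4:134314879-134314978, plus strand): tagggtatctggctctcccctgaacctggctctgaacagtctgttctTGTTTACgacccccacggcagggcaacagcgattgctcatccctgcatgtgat
Bcl2l11 (chr2:128125788-128125887, plus strand): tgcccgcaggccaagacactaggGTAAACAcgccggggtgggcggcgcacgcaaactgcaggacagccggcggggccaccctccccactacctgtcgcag

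**Figure D2:**
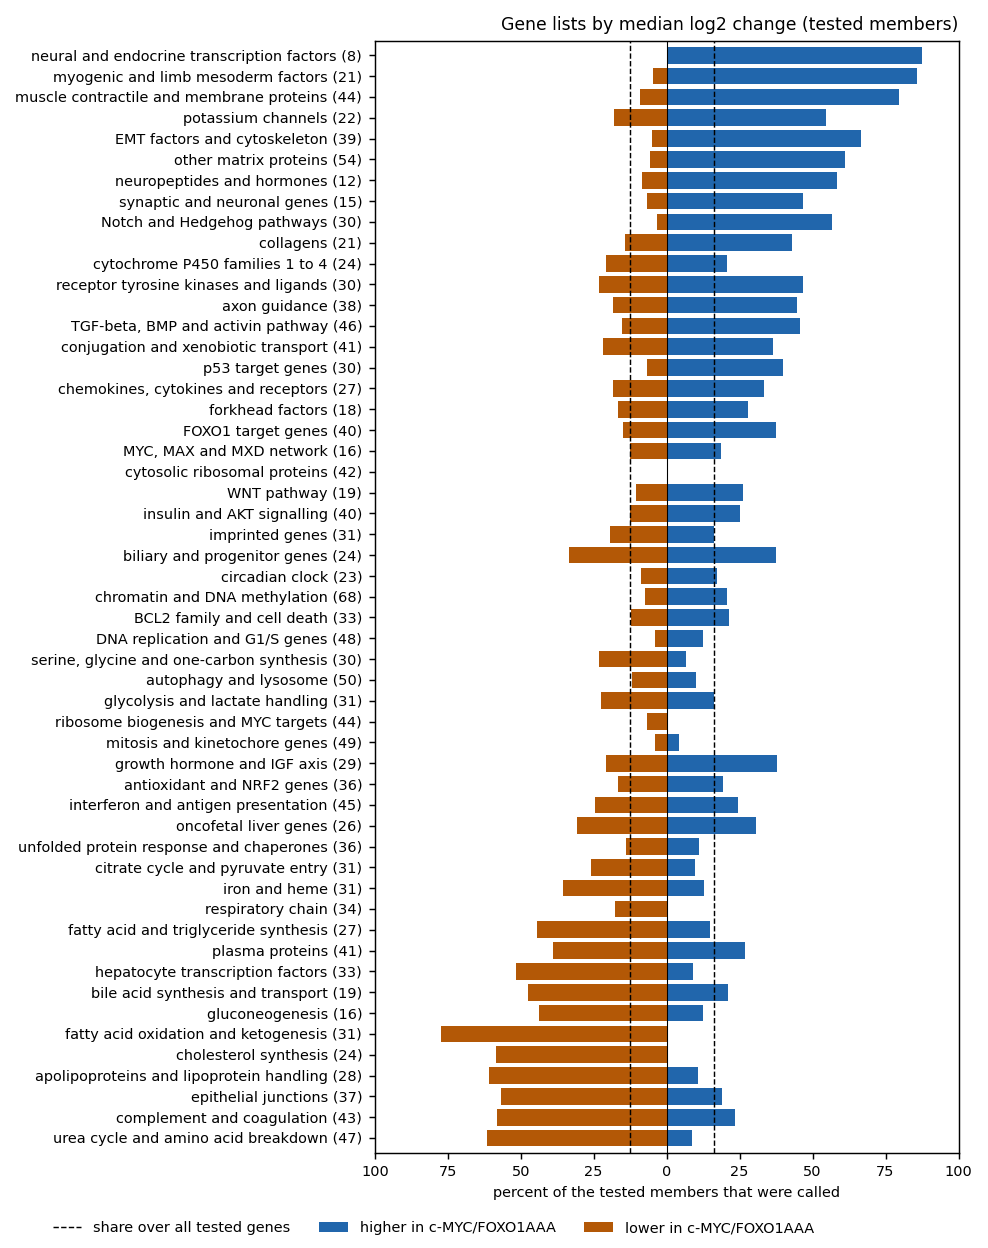
Share of the tested members of each gene list called higher (right) and lower (left) in c-MYC/FOXO1AAA, in percent, with the number tested in brackets and dashed lines at the shares over all tested genes, 16.1% and 12.7%. Lists of neural, myogenic and muscle genes are at the top, and lists of hepatocyte metabolism, coagulation and junction genes at the bottom.

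The largest gains were made by genes with few or no reads in c-MYC. Eef1a2, the muscle and neuron form of translation elongation factor 1A, had 0, 1 and 1 reads in the c-MYC libraries and 431, 357 and 304 FPKM in c-MYC/FOXO1AAA, a scaled read ratio of 21068 (95% counting interval 5832 to 173960.0) and a fitted log2 fold change of 12.27 (limma adjusted p 2.4e-07). Penk, the precursor of the enkephalin peptides, had 0, 0 and 2 reads and then 605, 414 and 447 FPKM (limma adjusted p 4.6e-07). Htra3, a secreted serine protease, went from 0.413, 0.504 and 1.104 FPKM in c-MYC to 1192, 916 and 718 FPKM in c-MYC/FOXO1AAA (log2 fold change 10.56, SE 0.38, limma adjusted p 4.3e-06), which was the largest gain in absolute level. Others of the 12 largest fitted increases were the matrix proteins Fbn2 (fitted change 10.62 on the log2 scale), Spock2 (10.58), Prg4 (10.12) and Coch, which had 1, 2 and 0 reads in c-MYC, the secreted protein Cytl1, which had no read in c-MYC and was at least 2019-fold higher against a floor of 3 reads over the group, and the surface protein Cd24a, at 0.455, 0.182 and 0.725 FPKM in c-MYC and 418, 324 and 275 FPKM in c-MYC/FOXO1AAA. Others among the 10 largest absolute gains were transcripts that c-MYC tumors already had. Ptms, a small acidic nuclear protein, rose from 712, 565 and 682 FPKM in c-MYC to 1476, 1359 and 1563 FPKM in c-MYC/FOXO1AAA (log2 fold change 1.17, SE 0.13, limma adjusted p 0.0049). Ssbp4 rose from 208, 183 and 207 to 638, 642 and 578 FPKM, and the protease inhibitor Cst3 from 106, 77.4 and 102 to 504, 541 and 482 FPKM. The plasma glutathione peroxidase Gpx3 rose from 31.5, 23.7 and 50.5 to 474, 336 and 445 FPKM. The cytokine receptor kinase Jak1 rose from 162, 233 and 153 to 653, 432 and 449 FPKM. Pkm, the gene of the pyruvate kinases PKM1 and PKM2, was at 222, 109 and 355 FPKM in c-MYC and 677, 754 and 658 FPKM in c-MYC/FOXO1AAA (log2 fold change 1.76, SE 0.39, limma adjusted p 0.039), a call that was lost when any 1 of the c-MYC/FOXO1AAA libraries was left out. Values per gene do not tell these forms apart.

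A skeletal muscle program was gained, in its regulators and its contractile proteins. The 4 myogenic regulatory factors, the bHLH proteins that commit cells to the muscle lineage and drive its genes, had no read in any c-MYC or NL library. In c-MYC/FOXO1AAA Myod1 was at 5.28, 6.92 and 3.73 FPKM, Myf5 at 5.12, 3.66 and 5.76 FPKM, Myog at 24.9, 35.3 and 17.4 FPKM and Myf6 at 3.15, 3.19 and 4.98 FPKM. Against a floor of 3 reads over the group these were at least 181, 185, 715 and 86.1-fold higher, and all were called by limma. Mef2c, their partner, rose from 0.689, 0.709 and 0.954 FPKM to 60.03, 60.3 and 56.7 FPKM (log2 fold change 6.25, SE 0.16, limma adjusted p 7.5e-07). Factors of the embryonic mesoderm accompanied them. Tbx15, a T-box factor of limb and muscle development, had no read in c-MYC and stood at 66.5, 53.1 and 54.3 FPKM in c-MYC/FOXO1AAA (at least 3826-fold higher). Tbx1 was at 18.8, 34.6 and 27.97 FPKM (at least 1259.7-fold). The cofactor Eya2 had 0, 2 and 1 reads in c-MYC and 29.8, 21.4 and 21.9 FPKM in c-MYC/FOXO1AAA. In the list of myogenic and limb mesoderm factors, 34 were in the table and 21 were tested, of which 18 were higher and 1 lower, with a median of 6.25 (6.43 with the genes without reads at their bound). The lower one was Gata4, a factor of heart and liver, at 1.99, 5.997 and 7.602 FPKM in c-MYC and 0.456, 0.6999 and 1.002 FPKM in c-MYC/FOXO1AAA (log2 fold change -2.72, SE 0.54, limma adjusted p 0.011). Of the 44 tested contractile and membrane proteins of muscle (of 67 in the table), 35 were higher and 4 lower, with a median of 4.69 (4.999 at the bounds), and their sum ran from 184 to 203 FPKM in c-MYC and from 978 to 1166 FPKM in c-MYC/FOXO1AAA. In both lists a gene silent in c-MYC was tested only if c-MYC/FOXO1AAA raised it, so the counts and medians are a description. Of all tested genes under 1 FPKM in NL, 45.9% were higher. Skeletal α-actin, Acta1, was at 0.1196, 0.0819 and 0.383 FPKM in c-MYC and 120.2, 121 and 89.4 FPKM in c-MYC/FOXO1AAA (log2 fold change 9.46, SE 0.54, limma adjusted p 2.5e-05). Mybpc1, slow myosin binding protein C, had 1, 1 and 0 reads in c-MYC and 73.5, 58.4 and 45.4 FPKM with FOXO1AAA. Fetal isoforms were among them, with Myl4, an embryonic light chain, at 0.135, 0.437 and 0.135 FPKM in c-MYC and 91.6, 78.9 and 91.8 FPKM in c-MYC/FOXO1AAA (log2 fold change 8.77, SE 0.45, limma adjusted p 1.2e-05). Embryonic myosin Myh3 was at 8.73, 8.72 and 5.86 FPKM against 1, 0 and 0 reads. The fast troponin Tnnt3 was at 0.665, 0.346 and 0.824 FPKM in c-MYC and 137, 196 and 148 FPKM in c-MYC/FOXO1AAA (log2 fold change 8.11, SE 0.32, limma adjusted p 3.8e-06). Of genes made in adult muscle, Tnni2, Mylpf, Atp2a1, Ryr1, Casq1, Actn3 and Mb were higher. Several others were not called, not tested or lower. Muscle creatine kinase, Ckm, was at 3.54, 0.682 and 4.53 FPKM in c-MYC and 4.75, 8.72 and 3.7995 FPKM in c-MYC/FOXO1AAA and was not called (limma adjusted p 0.50). The adult fast myosins Myh1 and Myh4 stayed under the minimum level, at 0.283, 0.0308 and 0.266 FPKM and 0.137, 0.0257 and 0.115 FPKM in c-MYC/FOXO1AAA. Tnnc1, slow troponin C, fell from 54.8, 69.99 and 40.1 FPKM to 5.53, 6.47 and 4.35 FPKM (log2 fold change -3.32, SE 0.23, limma adjusted p 4.4e-05). Dmd, dystrophin, fell from 1.78, 2.52 and 1.603 FPKM to 0.169, 0.176 and 0.504 FPKM.

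The myogenic factors bind E-boxes, and the letters CAGCTG, the same on both strands, were present before 53.6% of the 28 gained muscle genes with a promoter (15 genes), 19.2% of all higher genes, 14.9% of lower genes, 12.9% of genes with no call and 14.7% of all promoters. None of these 28 genes had the FOXO site in its window. That site stood before only 3.01% of all higher genes, so 28 genes are too few to show a lack of it. The E-box share before muscle genes that were not gained was not examined. A match is a description and not a bound site. The pair of muscle promoters below is shown because their genes were among the largest gains of that list, with the E-box in capitals.
Mybpc1 (chr10:88605187-88605286, minus strand): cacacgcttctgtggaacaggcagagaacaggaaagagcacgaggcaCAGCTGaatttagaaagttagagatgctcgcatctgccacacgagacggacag
Acta1 (chr8:123894926-123895025, minus strand): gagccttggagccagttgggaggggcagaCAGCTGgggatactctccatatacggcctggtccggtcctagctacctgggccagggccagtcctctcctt

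**Figure D3:**
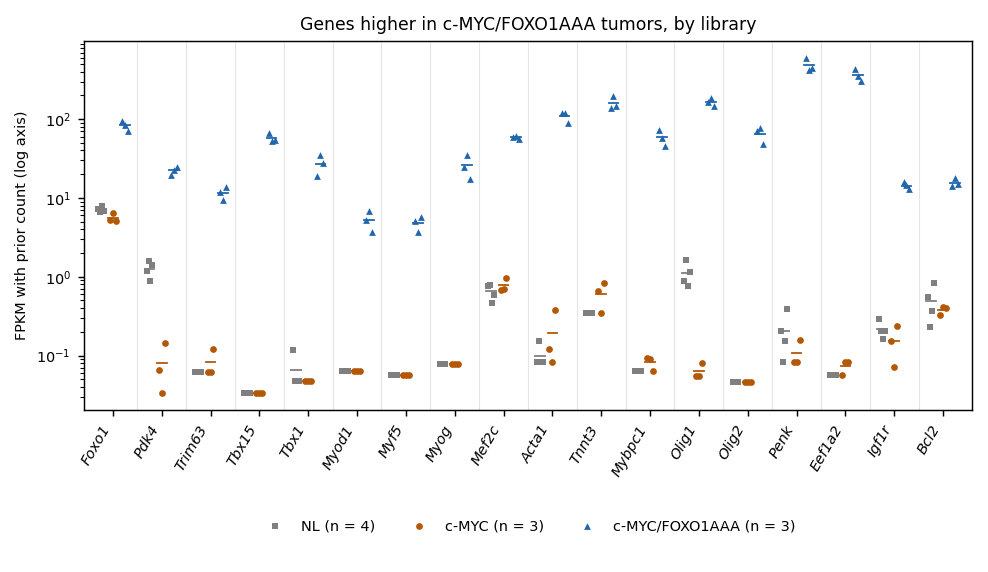
FPKM (log axis) of 18 genes called higher in c-MYC/FOXO1AAA, 1 point per library of NL (n = 4), c-MYC (n = 3) and c-MYC/FOXO1AAA (n = 3), with short lines at the group means. In each gene the 3 c-MYC/FOXO1AAA points lie above all c-MYC points, and Tbx15, Tbx1, Myod1, Myf5, Myog and Olig2 sit at the floor in c-MYC.

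Some neural genes were gained. Olig2, a bHLH factor of oligodendrocyte and motor neuron precursors, had no read in c-MYC or NL and stood at 70.4, 78.01 and 48.4 FPKM with FOXO1AAA (at least 3071-fold higher). Its neighbor Olig1 had 0, 0 and 1 reads in c-MYC and then 163, 184 and 149 FPKM. Zic1, a zinc finger factor of the neural tube, had no read in c-MYC and reached 3.96, 3.94 and 3.38 FPKM. Atoh8, a bHLH factor also made in normal liver, rose from 0.166, 0.0954 and 0.166 FPKM to 26.2, 18.6 and 15.6 FPKM (log2 fold change 7.16, SE 0.32, limma adjusted p 3.9e-06). Of 69 listed neural and endocrine factors 18 were in the table, 8 were tested and 7 of these were higher, with the neuronal repressor Rest as the remaining one. A gene silent in c-MYC was tested only if c-MYC/FOXO1AAA raised it, so this count and those of the next lists are a description. Of 29 synaptic and neuronal genes 15 were tested, 7 were higher and 1 lower (0 without c-MYC 2, c-MYC 3, c-MYC/FOXO1AAA 1 or c-MYC/FOXO1AAA 2), among them the microtubule protein Map1b at 0.0469, 0.036999 and 0.102 FPKM in c-MYC and 8.42, 7.32 and 7.95 FPKM in c-MYC/FOXO1AAA (log2 fold change 7.13, SE 0.41, limma adjusted p 1.2e-05). The synaptic adhesion protein Nrxn2 was at 0.381, 0.304 and 0.529 FPKM in c-MYC and 69.6, 45.5 and 43.4 FPKM in c-MYC/FOXO1AAA. Among defining markers of mature neurons and glia, Rbfox3 and Syt1 averaged under 1 FPKM in both tumor groups, Gfap had no read in any tumor library, and Mbp, at 17.7, 23.2 and 19.4 FPKM in c-MYC and 19.6, 20.2 and 10.97 FPKM in c-MYC/FOXO1AAA, was not called. Other peptide hormone genes were gained. Cpe, the carboxypeptidase that trims peptide precursors, rose from 0.0817, 0.131 and 0.185 FPKM to 43.3, 46.96 and 48.1 FPKM (log2 fold change 8.52, SE 0.30, limma adjusted p 2.0e-06). Cck and Pomc rose to 1.97, 3.66 and 3.02 FPKM and 1.26, 2.62 and 1.99 FPKM from under 1 FPKM. Including Penk, 7 of 12 tested genes of this list were higher and 1, Thpo, lower. Of 22 tested potassium channel genes 12 were higher and 4 lower, led by Kcnh1, a voltage-gated channel with no read in c-MYC and 9.23, 11.2 and 6.37 FPKM in c-MYC/FOXO1AAA. Cues of axon growth and cell migration changed in both directions, with 17 higher and 7 lower of 38. Sema5a rose from 6.78, 18.1 and 6.23 FPKM to 154, 88.9 and 107 FPKM (log2 fold change 3.64, SE 0.43, limma adjusted p 0.0010). Unc5cl fell from 6.19, 8.57 and 7.08 FPKM to 0.156, 0.0653 and 0.114 FPKM (log2 fold change -6.10, SE 0.37, limma adjusted p 1.7e-05).

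Matrix and cytoskeletal genes of mesenchymal cells rose while epithelial junction genes fell. In the list of noncollagen matrix proteins 33 of 54 tested genes were higher and 3 lower (median 2.13), with sums from 457 to 479 FPKM in c-MYC and from 1135 to 1139 FPKM in c-MYC/FOXO1AAA. Here too a gene silent in c-MYC was tested only if c-MYC/FOXO1AAA raised it, so the counts of this paragraph are a description. Fbn2, fibrillin 2 of elastic microfibrils, was at 0.0321, 0.0113 and 0.0477 FPKM in c-MYC and 39.3, 49.2 and 35.1 FPKM in c-MYC/FOXO1AAA. The leucine-rich proteoglycan Dcn was at 4.003, 1.76 and 7.99 FPKM in c-MYC and 312, 178 and 218 FPKM in c-MYC/FOXO1AAA. Thbs1, thrombospondin 1, was at 0.356, 0.165 and 0.458 FPKM in c-MYC and 29.9, 22.95 and 23.4 FPKM in c-MYC/FOXO1AAA (log2 fold change 6.40, SE 0.37, limma adjusted p 1.3e-05). Collagens moved in both directions by type. Of 21 tested, 9 were higher and 3 lower. The cartilage collagen Col2a1 had no read in c-MYC and reached 1.502, 2.37 and 1.45 FPKM. The fibrillar Col3a1 rose from 10.2, 3.64 and 10.4 FPKM to 50.96, 59.4 and 67.3 FPKM (log2 fold change 3.01, SE 0.41, limma adjusted p 0.0022). The most abundant member, the basement membrane collagen Col4a1, fell from 893, 1282 and 1016 FPKM to 211, 401 and 417 FPKM (log2 fold change -1.68, SE 0.28, limma adjusted p 0.012). The summed collagen level ran from 1084 to 1488 FPKM in c-MYC and from 344 to 648 FPKM in c-MYC/FOXO1AAA. The main fibrillar chain Col1a1, at 10.3, 3.16 and 11.4 FPKM in c-MYC and 10.98, 40.7 and 23.5 FPKM in c-MYC/FOXO1AAA, overlapped between groups and was not called. Of 39 tested genes of epithelial-mesenchymal transition and cytoskeleton, 26 were higher and 2 lower. Twist1, a bHLH driver of that transition, had 0, 0 and 3 reads in c-MYC and 9.17, 7.97 and 14.3 FPKM in c-MYC/FOXO1AAA. S100a6, a calcium-binding protein, rose from 4.05, 1.17 and 5.57 FPKM to 171, 152 and 169 FPKM (log2 fold change 5.78, SE 0.54, limma adjusted p 0.00026). Caveolin 1 (Cav1) rose from 9.97, 6.69 and 21.1 FPKM to 243, 161 and 150.1 FPKM (log2 fold change 4.01, SE 0.42, limma adjusted p 0.00052). Vimentin (Vim) rose from 22.7, 12.7 and 36.6 FPKM to 97.5, 108 and 133 FPKM (log2 fold change 2.35, SE 0.37, limma adjusted p 0.0056). N-cadherin, Cdh2, which marks this transition in many epithelia but is made by normal hepatocytes, fell instead (log2 fold change -2.48, SE 0.33, limma adjusted p 0.0017).

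Of 37 tested junction genes, 21 were lower and 7 higher (median -1.83). E-cadherin, Cdh1, the adhesion protein of epithelia, fell from 77.8, 104 and 79.9 FPKM to 2.299, 2.44 and 9.38 FPKM (log2 fold change -4.53, SE 0.53, limma adjusted p 0.00083). Cldn6, a claudin of embryonic epithelium, fell from 37.5, 49.7 and 54.3 FPKM to 0.168, 0.761 and 0.297 FPKM (log2 fold change -7.12, SE 0.52, limma adjusted p 6.5e-05). Cdhr2, a protocadherin of brush borders, fell from 11.7, 16.1 and 9.84 FPKM to 0.127, 0.0287 and 0.152 FPKM. The gap junction protein of hepatocytes, Gjb1, was at 242, 230.4 and 227 FPKM in c-MYC and 11.7, 16.4 and 32.5 FPKM in c-MYC/FOXO1AAA. The splicing regulator of epithelia, Esrp2, was at 64.9, 73.2 and 55.8 FPKM in c-MYC and 1.87, 2.86 and 8.46 FPKM in c-MYC/FOXO1AAA (both called lower by limma). Keratins 8 and 18 fell to 28.4, 48.1 and 67.4 FPKM and 23.2, 38.7 and 51.7 FPKM from 245, 204 and 258 FPKM and 140.3, 147 and 145 FPKM. Within these genes c-MYC/FOXO1AAA 3 kept the highest level of Cdh1, Gjb1, Esrp2, Krt8 and Krt18. The gained junction genes included Cdh15, the cadherin of muscle precursors.

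Markers of the other cell types a liver tumor can hold moved with these groups. Of 12 tested markers of stellate cells and fibroblasts 8 were higher and none lower (0 at an unadjusted p under 0.05), with sums from 18.7 to 57.8 FPKM in c-MYC and from 493 to 512 FPKM in c-MYC/FOXO1AAA, against 121 to 148 FPKM in NL. The list shares Dcn, Col3a1 and others with the matrix genes, and its count is likewise a description. Des, desmin of muscle and stellate cells, and Reln, reelin of stellate cells and neurons, had its largest log2 fold changes, 6.18 and 6.16. Lrat, which esterifies retinol in stellate cells, and Hand2 were under 1 FPKM on average in both tumor groups and untested, and Colec11, at 3.07, 1.84 and 6.05 FPKM in c-MYC and 1.85, 2.44 and 3.16 FPKM in c-MYC/FOXO1AAA, was not called. Of 10 tested muscle markers 9 were higher, with sums from 1.94 to 6.68 FPKM in c-MYC and from 345 to 472 FPKM in c-MYC/FOXO1AAA, all of them members of the muscle lists above. Of 9 endothelial markers 2 were higher, and the sums over all listed ones ran from 22.5 to 36.4 FPKM in c-MYC and from 60.1 to 79.2 FPKM in c-MYC/FOXO1AAA. One was the transcription factor Erg, at 1.301, 1.57 and 2.46 FPKM in c-MYC and 24.97, 18.6 and 17.3 FPKM in c-MYC/FOXO1AAA. The other was VE-cadherin, Cdh5, at 4.53, 3.21 and 6.08 FPKM in c-MYC and 35.8, 23.97 and 18.1 FPKM in c-MYC/FOXO1AAA, while Pecam1, at 4.77, 4.401 and 7.94 FPKM in c-MYC and 3.48, 2.14 and 5.14 FPKM in c-MYC/FOXO1AAA, and Kdr were not called. Of 11 macrophage markers 2 were lower and none higher (2 at an unadjusted p under 0.05; 2 were higher without c-MYC 3). The lower ones were Timd4 and Cd5l, both of resident Kupffer cells, and the sums ran from 456 to 521 FPKM in c-MYC and from 223 to 379.9 FPKM in c-MYC/FOXO1AAA. Clec4f, another Kupffer cell gene of the list, went the other way in every library without a call, with values given further on. The B cell markers Ebf1 and Cd79a rose to 19.95, 17.9 and 16.8 FPKM and 11.9, 9.66 and 6.98 FPKM from 0.346, 0.227 and 0.288 FPKM and 0.231, 0.227 and 0.193 FPKM. Of the same list, Cd79b, Jchain and Mzb1 were under the minimum level, and the immunoglobulin chain Igkc fell from 12.1, 9.102 and 14.8 FPKM to 1.98, 1.23 and 3.96 FPKM. The 8 hepatocyte markers went from 3852 to 5681 FPKM in c-MYC and from 895 to 1569.5 FPKM in c-MYC/FOXO1AAA, against 83436 to 94098 FPKM in NL, with 5 lower, Tat higher, and Alb, at 512, 1436 and 562 FPKM in c-MYC and 458, 910.5 and 554 FPKM in c-MYC/FOXO1AAA, and Cyp2e1 not called. The part that a change in cell types may have in the gene groups was not tested.

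**Figure D4:**
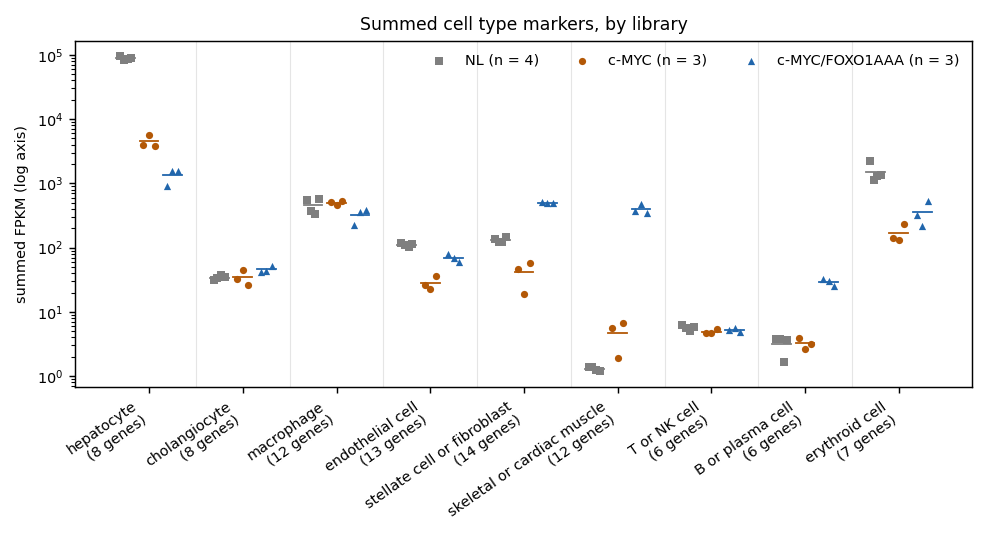
Summed FPKM of the listed markers of each cell type (log axis), 1 point per library of NL (n = 4), c-MYC (n = 3) and c-MYC/FOXO1AAA (n = 3). The c-MYC/FOXO1AAA points lie above the c-MYC points for the muscle, stellate cell or fibroblast, endothelial and B or plasma cell lists and below them for hepatocyte and macrophage lists.

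Genes of developmental signaling were gained in several pathways. Of 30 tested genes of the Notch and Hedgehog pathways 17 were higher and 1 lower (median 1.64). A gene under 1 FPKM in every c-MYC library was tested only if every c-MYC/FOXO1AAA library reached that level. The counts and the median of this paragraph are thus a description. Gli2 and Gli1, the transcription factors of Hedgehog signaling, rose from 0.0178, 0.0338 and 0.02604 FPKM to 6.46, 5.55 and 3.05 FPKM and from 0.0829, 0.121 and 0.2305 FPKM to 4.78, 7.56 and 3.67 FPKM. The coreceptors Boc and Gas1 rose to 8.59, 5.698 and 5.46 FPKM and 16.6, 14.003 and 14.6 FPKM (all called by limma). Ptch1, the receptor that Hedgehog signaling itself induces, was not called, and passed the test without c-MYC/FOXO1AAA 3. In the Notch branch of the list the bHLH factors Hes1, Hes6 and Hey1 were higher, and Hes6 was the most abundant at 41.9, 42.4 and 56.8 FPKM in c-MYC and 105, 117 and 123 FPKM in c-MYC/FOXO1AAA (log2 fold change 1.30, SE 0.15, limma adjusted p 0.0036). The receptor Notch1 was lower, at 4.65, 4.18 and 3.51 FPKM in c-MYC and 1.76, 2.02 and 1.45 FPKM in c-MYC/FOXO1AAA (log2 fold change -1.24, SE 0.22, limma adjusted p 0.031), a call lost without c-MYC 1, c-MYC 2, c-MYC/FOXO1AAA 1 or c-MYC/FOXO1AAA 3. In the TGF-β, BMP and activin pathway 21 of 46 tested genes were higher and 7 lower (4 without c-MYC 2). The ligand Tgfb2 rose from 0.2998, 0.141 and 0.159 FPKM to 33.3, 29.7 and 24.2 FPKM (log2 fold change 7.26, SE 0.32, limma adjusted p 3.6e-06). The BMP receptor Bmpr1b had 0, 1 and 0 reads and then 8.32, 7.41 and 4.71 FPKM. The target Id3 rose from 2.78, 1.63 and 4.01 FPKM to 135, 118 and 89.7 FPKM (log2 fold change 5.42, SE 0.33, limma adjusted p 2.8e-05). Id2, of the same family, fell from 63.3, 42.5 and 39.7 FPKM to 17.3, 21.97 and 24.1 FPKM, a call with a limma adjusted p of 0.037 that was lost without c-MYC 1, c-MYC 2, c-MYC/FOXO1AAA 1 or c-MYC/FOXO1AAA 2. Of 30 tested receptor tyrosine kinases and ligands 14 were higher and 7 lower. The mesenchymal receptors Pdgfra and Pdgfrb rose to 3.54, 4.07 and 6.02 FPKM and 14.3, 14.2 and 13.4 FPKM. The hepatocyte receptor Fgfr4 fell from 17.3, 20.04 and 15.04 FPKM to 1.23, 1.88 and 2.03 FPKM together with its coreceptor Klb, at 27.9, 35.9 and 24.4 FPKM in c-MYC and 0.446, 0.175 and 2.06 FPKM in c-MYC/FOXO1AAA (log2 fold change -5.74, SE 0.82, limma adjusted p 0.0020). Fgf13 had no read in c-MYC and 4.71, 4.39 and 2.78 FPKM in c-MYC/FOXO1AAA. Of 19 tested WNT genes 5 were higher and 2 lower.

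Genes of insulin signaling and AKT, the pathway that inactivates native FOXO1, were called in both directions. Of 40 tested 10 were higher and 5 lower (3 without c-MYC/FOXO1AAA 1), beside 16.1% and 12.7% among all genes. The IGF1 receptor, Igf1r, which is nearly silent in adult hepatocytes, rose from 0.154, 0.0709 and 0.235 FPKM to 15.8, 14.5 and 12.8 FPKM (log2 fold change 6.71, SE 0.43, limma adjusted p 1.9e-05). Akt1 rose from 31.9, 35.3 and 41.9 FPKM to 109, 106 and 89.6 FPKM (log2 fold change 1.48, SE 0.14, limma adjusted p 0.00084), whereas Akt2 was not called. The insulin receptor, Insr, at 10.8, 13.3 and 9.405 FPKM in c-MYC and 4.65, 5.94 and 5.82 FPKM in c-MYC/FOXO1AAA, was below c-MYC in every library without a call (limma adjusted p 0.061), and passed the test without c-MYC 3. Grb14, an inhibitor of that receptor, fell from 37.4, 37.3 and 37.5 FPKM to 2.39, 3.57 and 7.27 FPKM (log2 fold change -3.24, SE 0.37, limma adjusted p 0.00085). Its imprinted relative Grb10 rose to 18.2, 77.1 and 20.03 FPKM, with c-MYC/FOXO1AAA 2 far above the others. Socs2, a feedback inhibitor of growth hormone signaling, rose from 6.22, 1.92 and 2.42 FPKM to 44.7, 53.02 and 57.7 FPKM (log2 fold change 4.07, SE 0.42, limma adjusted p 0.00049). Of the mTOR components on the list, Mtor, Rptor, Rictor, Tsc1 and Tsc2 were not called, whereas the mTOR-binding Deptor was lower.

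Cell death and p53 target genes held members on both sides. The antiapoptotic Bcl2 rose from 0.329, 0.415 and 0.406 FPKM to 14.1, 17.7 and 14.8 FPKM (log2 fold change 5.34, SE 0.21, limma adjusted p 2.4e-06). On the opposing side Bok rose from 15.9, 11.4 and 14.6 FPKM to 60.5, 65.96 and 55.5 FPKM. The BH3-only genes Pmaip1 and Bcl2l11 rose to 6.01, 3.01 and 6.096 FPKM and 7.26, 7.502 and 6.32 FPKM (all called by limma). In this family 7 of 33 tested genes were higher and 4 lower (2 without c-MYC 1, c-MYC 2 or c-MYC/FOXO1AAA 1), beside 16.1% and 12.7% among all genes, and Bcl2l1, Bax and Bak1 were not called. Of 30 tested p53 targets 12 were higher and 2 lower (1 without c-MYC 1, c-MYC 2 or c-MYC/FOXO1AAA 1, median 0.57), among them the kinase Plk2 at 1.87, 1.48 and 3.39 FPKM in c-MYC and 44.2, 43.1 and 36.2 FPKM in c-MYC/FOXO1AAA (log2 fold change 4.28, SE 0.29, limma adjusted p 3.8e-05). The death receptor Eda2r was at 0.995, 3.16 and 3.73 FPKM in c-MYC and 36.7, 21.8 and 22.7 FPKM in c-MYC/FOXO1AAA (log2 fold change 3.53, SE 0.51, limma adjusted p 0.0026). Cdkn1a, the cell cycle inhibitor p21, was above c-MYC in every library, at 26.6, 18.4 and 28.4 FPKM in c-MYC and 49.3, 42.7 and 50.4 FPKM in c-MYC/FOXO1AAA, without passing the test (limma adjusted p 0.092).

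On the side of losses were factors that define hepatocytes. Hnf4a fell from 83.7, 112 and 87.3 FPKM to 4.67, 5.72 and 11.1 FPKM (log2 fold change -3.81, SE 0.31, limma adjusted p 0.00014). Onecut1 fell from 4.79, 6.2003 and 4.32 FPKM to 0.184, 0.275 and 0.378 FPKM (log2 fold change -4.24, SE 0.33, limma adjusted p 6.4e-05). Both factors are known to act on many of the liver's transcripts. Their groups lay far apart, and in NL they were at 164 to 197 and 5.23 to 12.1 FPKM. Cebpa, a factor of metabolic genes and of growth arrest, went from 144, 139 and 124 FPKM in c-MYC to 17.6, 26.9 and 37.8 FPKM in c-MYC/FOXO1AAA. Ppara, the receptor that turns on fatty acid oxidation, went from 7.44, 9.698 and 6.898 FPKM in c-MYC to 0.998, 1.52 and 1.403 FPKM in c-MYC/FOXO1AAA (both lower by limma). In the list 17 of 33 tested factors were lower and 3 higher (5 without c-MYC 1), with a median of -1.18. Others were not called. Prox1, a factor of liver development, was at 14.4, 19.3 and 10.7 FPKM in c-MYC and 20.6, 17.8 and 12.5 FPKM in c-MYC/FOXO1AAA. Foxa1 and Foxa2, the pioneer factors of the liver, varied widely among the c-MYC libraries (Foxa1 6.88, 0.0537 and 0.225 FPKM, Foxa2 1.82, 11.4 and 4.71 FPKM) and overlapped with c-MYC/FOXO1AAA. Without c-MYC 1, its highest c-MYC library, Foxa1 was called higher in c-MYC/FOXO1AAA. Foxa2 passed the test without c-MYC 1 and also without c-MYC/FOXO1AAA 3. Foxa3 was lower (log2 fold change -3.21, SE 0.27, limma adjusted p 0.00011).

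Tmed6, a protein of the early secretory pathway, fell from 154, 106 and 144 FPKM to 0.416, 0.213 and 4.53 FPKM (log2 fold change -7.50, SE 1.05, limma adjusted p 0.0016). Sfmbt2, an imprinted Polycomb gene, fell from 27.9, 30.2 and 25.4 FPKM to 0.113, 0.245 and 0.132 FPKM (log2 fold change -7.50, SE 0.31, limma adjusted p 2.9e-06). Afp, α-fetoprotein, the classic serum marker of liver cancer, fell from 1879, 2781 and 1635 FPKM to 17.3, 5.56 and 112 FPKM (log2 fold change -6.53, SE 0.99, limma adjusted p 0.0025), which brought 2 of the 3 libraries within the NL range of 11.1 to 169 FPKM. Ggt1, γ-glutamyltransferase of fetal and malignant liver, fell from 120.3, 136 and 130.02 FPKM to 0.947, 0.556 and 8.11 FPKM (log2 fold change -6.31, SE 0.92, limma adjusted p 0.0021). In Tmed6, Afp and Ggt1 the highest of the 3 was c-MYC/FOXO1AAA 3. The other members of the 12 largest decreases were Cdhr2, Cldn6, Shbg, Dct, L1td1, Bhlha15, Slc44a4 and Foxj1, with log2 fold changes from -7.22 for Cdhr2 to -6.04 for Foxj1. Oncofetal genes as a list did not go one way, with 8 higher and 8 lower of 26. Igf2bp3, an mRNA-binding protein of fetal tissue, fell from 8.29, 14.5 and 8.72 FPKM to 0.373, 0.8286 and 1.67 FPKM. The stem cell factor Sall4 fell from 7.18, 7.55 and 6.91 FPKM to 0.314, 0.336 and 1.95 FPKM. Hmga2, a chromatin protein of embryonic cells, had 0, 0 and 1 reads in c-MYC and 9.02, 7.14 and 7.91 FPKM in c-MYC/FOXO1AAA, a scaled read ratio of 1648 (95% counting interval 296 to 65077). The growth factor Igf2, at 406, 639 and 395 FPKM in c-MYC and 284, 294 and 280.4 FPKM in c-MYC/FOXO1AAA, was below c-MYC in every library but not called (limma adjusted p 0.60). Without the fold threshold it was called lower (limma adjusted p 0.0125). H19, the imprinted RNA beside it and the largest absolute loss, went from 16621, 16764 and 20337 FPKM in c-MYC to 6651, 9096 and 8655 FPKM in c-MYC/FOXO1AAA (log2 fold change -1.15, SE 0.16, limma adjusted p 0.017), a call lost without c-MYC 3 or c-MYC/FOXO1AAA 1 and with quantile normalization. Other imprinted genes moved apart, with Phlda2, a placental growth inhibitor, falling from 45.1, 68.7 and 100.8 FPKM to 0.853, 0.997 and 1.64 FPKM and Ndn, necdin, rising from 0.121, 0.0321 and 0.1499 FPKM to 14.9, 17.8 and 9.24 FPKM (both called by limma). In all 5 of 31 imprinted genes were higher and 6 lower, beside 16.1% and 12.7% among all genes.

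**Figure D5:**
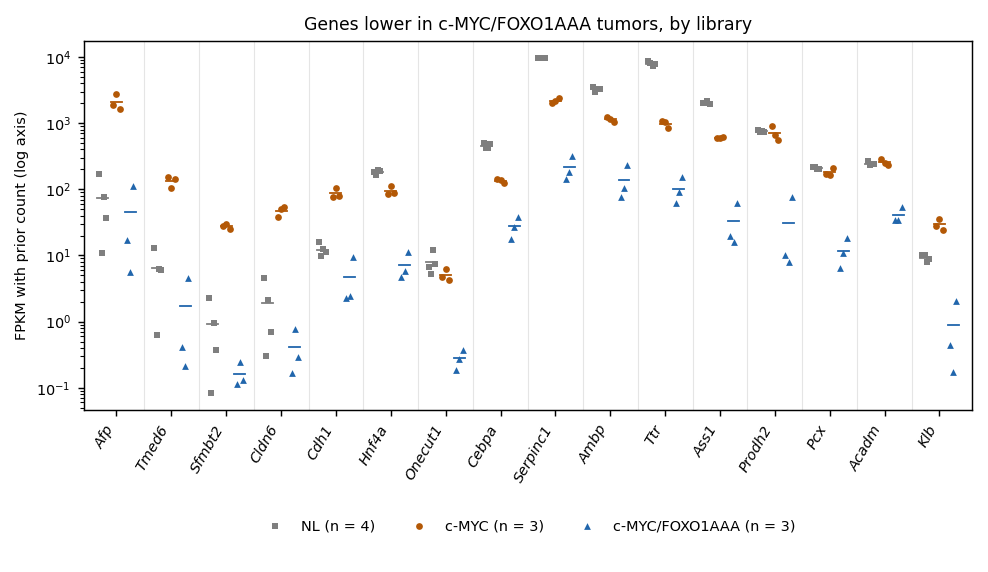
FPKM (log axis) of 16 genes called lower in c-MYC/FOXO1AAA, 1 point per library of NL (n = 4), c-MYC (n = 3) and c-MYC/FOXO1AAA (n = 3), with short lines at the group means. All c-MYC/FOXO1AAA points lie below the c-MYC points, and for Afp, Tmed6, Sfmbt2, Cldn6 and Cdh1 the c-MYC points lie above NL.

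Several branches of liver metabolism fell, whereas glycolysis, P450 genes and genes of conjugation and drug transport did not fall as lists. In the urea cycle and amino acid breakdown 29 of 47 tested genes were lower and 4 higher (median -1.84), and their sums ran from 4053 to 4254 FPKM in c-MYC and from 918 to 1374 FPKM in c-MYC/FOXO1AAA. Ass1, argininosuccinate synthase of the urea cycle, fell from 599.9, 595 and 619 FPKM to 19.7, 15.98 and 62.9 FPKM (log2 fold change -4.48, SE 0.48, limma adjusted p 0.00056). Cps1, its first enzyme, fell from 50.9, 103 and 116 FPKM to 6.68, 5.61 and 22.9 FPKM (log2 fold change -3.15, SE 0.58, limma adjusted p 0.0084). Prodh2, hydroxyproline dehydrogenase, fell from 889, 659 and 547 FPKM to 10.02, 8.07 and 75.95 FPKM (log2 fold change -5.22, SE 0.81, limma adjusted p 0.0030). Gldc, of the glycine cleavage system, fell from 132, 106 and 106 FPKM to 2.53, 1.02 and 15.3 FPKM. In these 4 genes c-MYC/FOXO1AAA 3 was again the highest of its group. The exceptions were of different kinds. Bcat1, the cytosolic branched-chain aminotransferase that adult liver lacks, had 0, 1 and 0 reads in c-MYC and 23.4, 37.6 and 29.1 FPKM in c-MYC/FOXO1AAA. Tat, tyrosine aminotransferase, and Tdo2, of tryptophan breakdown, were also higher, and Tdo2 lost the call when any 1 of the c-MYC/FOXO1AAA libraries was left out.

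Gluconeogenesis shared the loss in 7 of 16 tested genes, with 2 higher. Pcx, pyruvate carboxylase, fell from 171, 162 and 209 FPKM to 6.398, 10.8 and 18.2 FPKM (log2 fold change -4.06, SE 0.35, limma adjusted p 0.00021). Gcgr, the glucagon receptor, fell from 77.8, 58.8 and 60.6 FPKM to 3.34, 5.43 and 9.52 FPKM (log2 fold change -3.55, SE 0.36, limma adjusted p 0.00046). Glycolysis had 5 higher and 7 lower of 31 tested, beside 16.1% and 12.7% among all genes. The neuronal glucose transporter Slc2a3 rose from 0.0987, 0.0969 and 0.154 FPKM to 5.62, 6.499 and 4.63 FPKM. Muscle phosphofructokinase, Pfkm, rose from 0.552, 0.723 and 0.495 FPKM to 8.84, 11.3 and 9.37 FPKM. The liver pyruvate kinase Pklr fell from 14.5, 20.9 and 16.1 FPKM to 1.41, 2.24 and 2.27 FPKM (all called by limma), and so did Pgam2, the muscle phosphoglycerate mutase, and Aldoc, the brain aldolase. The call of Pgam2 was lost without c-MYC 2 or c-MYC/FOXO1AAA 2. The summed level of the list ran from 6296 to 7543 FPKM in c-MYC and from 6377 to 6910.1 FPKM in c-MYC/FOXO1AAA.

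Fatty acid oxidation had no gained member by limma (0 at an unadjusted p under 0.05). Of 31 tested genes 24 were lower, with a median of -1.62 and sums from 2575 to 2814 FPKM in c-MYC and from 644 to 1053 FPKM in c-MYC/FOXO1AAA. Acadm, medium-chain acyl-CoA dehydrogenase, fell from 283, 250.02 and 230.3 FPKM to 34.4, 34.5 and 54.7 FPKM (log2 fold change -2.66, SE 0.19, limma adjusted p 7.0e-05). Hadh, of the next steps, fell from 300.3, 290.2 and 273 FPKM to 39.3, 44.5 and 77.8 FPKM (log2 fold change -2.48, SE 0.24, limma adjusted p 0.00038). Cholesterol synthesis likewise had 14 lower and none higher of 24 tested (0 higher at an unadjusted p under 0.05). Lss, lanosterol synthase of its middle steps, fell from 205, 343 and 233 FPKM to 44.8, 56.03 and 58.8 FPKM. In fatty acid and triglyceride synthesis 12 of 27 were lower and 4 higher, and Dgat2, of the last step to triglyceride, fell from 154, 229 and 203 FPKM to 13.4, 17.6 and 30.03 FPKM. Bile acid genes had 9 lower and 4 higher of 19. The mitochondrial core had 8 lower and 3 higher of 31 citrate cycle genes. Respiratory chain genes had 6 lower of 34 (17.6%), beside 12.7% lower among all genes, and none higher (0 at an unadjusted p under 0.05). Their count of lower genes was 3 without c-MYC/FOXO1AAA 2, 2 with quantile normalization and 0 at 2-fold. The most abundant member Atp5b was at 4894, 4849 and 4676 FPKM in c-MYC and 2691, 2880.2 and 2959.6 FPKM in c-MYC/FOXO1AAA and was not called. Without the fold threshold it was called lower (limma adjusted p 0.000502). Pdk4 of the FOXO1 targets was 1 of the 3 higher.

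Complement and coagulation transcripts lost most of the level that c-MYC tumors had kept. Of 43 tested genes 25 were lower and 10 higher, and their sum ran from 6671 to 7512 FPKM in c-MYC and from 709.5 to 1367 FPKM in c-MYC/FOXO1AAA. Antithrombin, Serpinc1, fell from 2014, 2168 and 2401 FPKM to 143, 183 and 319 FPKM (log2 fold change -3.43, SE 0.28, limma adjusted p 0.00012). Fga, the fibrinogen α chain, fell from 817, 861 and 677 FPKM to 31.8, 86.2 and 80.1 FPKM (log2 fold change -3.69, SE 0.38, limma adjusted p 0.00049). The gained ones included genes that other cells also make, such as tissue factor, F3, at 0.378, 0.193 and 1.05 FPKM in c-MYC and 4.74, 6.75 and 5.23 FPKM in c-MYC/FOXO1AAA, and thrombomodulin, Thbd. Of 28 apolipoprotein and lipoprotein genes 17 were lower and 3 higher (1 without c-MYC 1, c-MYC 2 or c-MYC/FOXO1AAA 2). Apoa1, the main protein of HDL, fell from 1676, 2402 and 1611 FPKM to 271, 439 and 685 FPKM (log2 fold change -2.11, SE 0.34, limma adjusted p 0.0069). Apoa2 fell from 2107, 1910.2 and 2063 FPKM to 262, 277 and 1058 FPKM (log2 fold change -2.25, SE 0.52, limma adjusted p 0.031), a call lost without c-MYC 2, c-MYC 3, c-MYC/FOXO1AAA 1 or c-MYC/FOXO1AAA 2. Apoe, the most abundant at 4859, 4059 and 4521 FPKM in c-MYC and 2577, 2896 and 3694 FPKM in c-MYC/FOXO1AAA, was not called. Without the fold threshold it was called lower (limma adjusted p 0.0163). Plasma proteins changed in both directions, with 16 lower and 11 higher of 41. The carriers transferrin (Trf) and transthyretin (Ttr) fell from 2724, 3563 and 2236 FPKM to 396, 838 and 494 FPKM (log2 fold change -2.35, SE 0.29, limma adjusted p 0.0016) and from 1074, 1025 and 849.8 FPKM to 61.6, 91.9 and 154 FPKM (log2 fold change -3.36, SE 0.31, limma adjusted p 0.00027), and Ambp from 1224, 1138 and 1043 FPKM to 75.99, 105 and 233 FPKM. The higher ones included acute phase proteins and major urinary proteins. Serpina3n rose from 1.51, 3.19 and 3.22 FPKM to 89.6, 99.4 and 67.6 FPKM (log2 fold change 5.08, SE 0.31, limma adjusted p 2.9e-05). Hp, haptoglobin, rose from 13.9, 11.7 and 45.98 FPKM to 170.01, 375 and 166 FPKM (log2 fold change 3.49, SE 0.57, limma adjusted p 0.0047). Iron genes had 11 lower and 4 higher of 31, with Tfr2, the sensor of iron-loaded transferrin, at 36.9, 38.9 and 31.6 FPKM in c-MYC and 3.203, 6.29 and 7.41 FPKM in c-MYC/FOXO1AAA.

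Several gained genes were transcripts that healthy liver makes in large amounts and that c-MYC tumors had almost lost. Mup12, a major urinary protein, had 0, 2 and 114 reads in the c-MYC libraries and 104, 102 and 130.02 FPKM in c-MYC/FOXO1AAA (log2 fold change 7.54, SE 1.38, limma adjusted p 0.0059), against 11979 to 23147 FPKM in NL. Car3, carbonic anhydrase 3, rose from 1.95, 2.09 and 3.18 FPKM to 19.4, 29.8 and 22.7 FPKM (log2 fold change 3.33, SE 0.23, limma adjusted p 4.6e-05), against 3394 to 3724 FPKM in NL. Of 41 tested genes of conjugation and drug transport 15 were higher and 9 lower, and of 24 P450 genes 5 were higher and 5 lower. The 5 higher P450 genes were 13 without c-MYC 3, 3 without c-MYC/FOXO1AAA 2, and 10 with all 10 libraries in the fit or at the same FPKM total. Cyp2e1, of that list, was at 9.81, 2.82 and 27.5 FPKM in c-MYC and 58.03, 85.7 and 46.9 FPKM in c-MYC/FOXO1AAA and 6625 to 8719.8 FPKM in NL (limma adjusted p 0.051). Clec4f, a Kupffer cell gene that is not made by hepatocytes, had the same order of groups, at 5.21, 1.42 and 7.36 FPKM in c-MYC and 16.1, 25.4 and 12.8 FPKM in c-MYC/FOXO1AAA and 149 to 262 FPKM in NL, without passing the test (limma adjusted p 0.063). Both were called higher without c-MYC 3. Of the 115 gained genes with at least 100 FPKM in NL, 22 were under 1% of the NL level in c-MYC/FOXO1AAA. Whether some normal liver was included in the tumor pieces was not tested. Mup genes are near-identical copies, so reads may be split among them and values of single members are uncertain.

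Few genes of growth and division passed the test. Of 42 tested cytosolic ribosomal proteins none was called by limma, and 1 was higher without c-MYC 1 (with all libraries 0 higher and 0 lower at an unadjusted p under 0.05), and their sum ran from 44612 to 57600.0 FPKM in c-MYC and from 52980.0 to 65041 FPKM in c-MYC/FOXO1AAA, against 18758 to 24297 FPKM in NL. Ribosome biogenesis genes had 3 lower (1 without c-MYC 1, c-MYC 2 or c-MYC/FOXO1AAA 1) and none higher of 44 (0 at an unadjusted p under 0.05), and Polr1a, the large subunit of RNA polymerase I, went from 344, 459 and 334 FPKM in c-MYC to 166, 181 and 164 FPKM in c-MYC/FOXO1AAA (log2 fold change -1.14, SE 0.14, limma adjusted p 0.011), a call lost at the same FPKM total and with quantile normalization. Mitotic genes had 2 called in each direction of 49, and the 2 higher were 1 without c-MYC 2 or any 1 of the c-MYC/FOXO1AAA libraries. Of the 49, 24 lay below c-MYC without overlap and 9 above, with a median log2 fold change of -0.32. Of the 44 ribosome biogenesis genes 20 lay below and 3 above. Among all genes the shares were 31.7% below and 33.2% above. Mki67, the proliferation marker, was at 19.4, 26.6 and 21.96 FPKM in c-MYC and 13.7, 14.4 and 12.2 FPKM in c-MYC/FOXO1AAA, below c-MYC in every library without a call (limma adjusted p 0.37). Without the fold threshold it was called lower (limma adjusted p 0.00285). Top2a, topoisomerase IIα of dividing cells, was at 49.3, 58.6 and 53.6 FPKM in c-MYC and 39.4, 39.002 and 38.1 FPKM in c-MYC/FOXO1AAA. Among 48 genes of replication and of the entry into S phase 6 were higher and 2 lower (4 without c-MYC/FOXO1AAA 2). The 6 included genes that hold the cell cycle as well as genes that drive it. Cdkn2a, which encodes p16 and p19ARF, rose from 0.459, 0.6997 and 1.61 FPKM to 15.1, 9.61 and 12.6 FPKM (log2 fold change 3.93, SE 0.44, limma adjusted p 0.00051). Rb1, the retinoblastoma protein, rose from 1.28, 1.599 and 1.55 FPKM to 5.395, 4.88 and 4.19 FPKM (log2 fold change 1.71, SE 0.20, limma adjusted p 0.0019). The cyclin Ccnd2 rose from 2.36, 2.81 and 4.704 FPKM to 30.4, 20.6 and 27.4 FPKM (log2 fold change 3.03, SE 0.27, limma adjusted p 0.00018). In the MYC network the antagonist Mxd4 rose from 47.4, 40.1 and 36.2 FPKM to 124, 129.9 and 103 FPKM (log2 fold change 1.53, SE 0.14, limma adjusted p 0.00074). Zbtb17, MIZ1, rose from 6.17, 5.35 and 6.603 FPKM to 16.2, 18.3 and 15.5 FPKM (log2 fold change 1.47, SE 0.14, limma adjusted p 0.00084). The letters CACGTG, the E-box of MYC, stood before 9.03% of higher, 10.1% of lower and 10.4% of uncalled genes, and before 6.86% of all promoters.

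Most chromatin regulators were not called, with 14 higher and 5 lower of 68 tested, beside 16.1% and 12.7% among all genes. Some of the called ones changed by much. Smarca2, the BRM helicase of SWI/SNF complexes, rose from 1.98, 1.58 and 2.11 FPKM to 28.8, 25.8 and 24.7 FPKM (log2 fold change 3.81, SE 0.16, limma adjusted p 3.3e-06). Hdac9, a class IIa deacetylase that represses MEF2 factors in muscle, had 4, 4 and 2 reads in c-MYC and 2.26, 2.28 and 2.27 FPKM in c-MYC/FOXO1AAA. Dnmt3a, a DNA methyltransferase, fell from 31.1, 47.1 and 32.1 FPKM to 5.83, 6.397 and 6.39 FPKM (log2 fold change -2.54, SE 0.17, limma adjusted p 5.1e-05). The lowest of these lay within the NL range (3.097 to 5.92 FPKM) and the others just above it. Other forkhead genes moved beside Foxo1, with 5 higher and 3 lower of 18. Foxd1, a factor of kidney and lung stroma, had 0, 1 and 1 reads in c-MYC and 17.4, 13.1 and 13.6 FPKM in c-MYC/FOXO1AAA. Foxj1, the factor of motile cilia, fell from 14.6, 11.7 and 6.62 FPKM to 0.123, 0.198 and 0.162 FPKM (log2 fold change -6.04, SE 0.36, limma adjusted p 1.5e-05). Few homeobox genes reached the minimum level, and 4 of 6 were higher and 1, the liver factor Hhex, lower.

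Immune genes changed in both directions. Interferon and antigen presentation genes had 11 higher and 11 lower of 45. The higher ones included the interferon-induced Ifitm1, Ifitm3 and Ifit2 and members of class I presentation, with Nlrc5, its transcriptional activator, at 0.203, 0.212 and 0.138 FPKM in c-MYC and 4.89, 5.35 and 2.801 FPKM in c-MYC/FOXO1AAA (log2 fold change 4.53, SE 0.35, limma adjusted p 5.7e-05). The class I heavy chain H2-K1 was at 27.2, 29.2 and 39.4 FPKM in c-MYC and 139, 155 and 124 FPKM in c-MYC/FOXO1AAA (log2 fold change 2.14, SE 0.16, limma adjusted p 0.00012). The immunoproteasome subunit Psmb9 was at 11.2, 6.44 and 8.97 FPKM in c-MYC and 42.4, 52.4 and 38.3 FPKM in c-MYC/FOXO1AAA (log2 fold change 2.34, SE 0.22, limma adjusted p 0.00028). H2 genes are close copies of each other, and reads may be split among them. The lower ones included H2-T23 and the immunoproteasome subunit Psmb10, and interferon-induced genes such as the chemokine Cxcl10 at 3.94, 8.16 and 7.57 FPKM in c-MYC and 0.628, 0.384 and 0.947 FPKM in c-MYC/FOXO1AAA (log2 fold change -3.35, SE 0.41, limma adjusted p 0.00076) and Igtp, a GTPase of cell-autonomous defense. Of 27 chemokine and cytokine genes 9 were higher and 5 lower. Spp1, osteopontin, rose from 0.934, 1.55 and 2.17 FPKM to 25.5, 21.6 and 29.5 FPKM (log2 fold change 4.11, SE 0.30, limma adjusted p 4.9e-05). Cxcl12, a chemokine of stroma, fell from 18.8, 20.6 and 20.05 FPKM to 2.09, 2.799 and 4.97 FPKM (log2 fold change -2.69, SE 0.29, limma adjusted p 0.00059). Markers of T cells, neutrophils and erythroid cells were not called or under the minimum level. Biliary and progenitor genes also changed in both directions, 9 higher and 8 lower of 24, with the keratin Krt19 at 0.283, 0.0751 and 0.628 FPKM in c-MYC and 1.88, 5.64 and 5.45 FPKM in c-MYC/FOXO1AAA. The surface protein Epcam was at 16.1, 16.5 and 12.6 FPKM in c-MYC and 1.47, 3.03 and 1.48 FPKM in c-MYC/FOXO1AAA (both called by limma).

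Stress, housekeeping and growth hormone genes follow, against 16.1% higher and 12.7% lower among all genes. Antioxidant genes had 7 higher and 6 lower of 36, and the metallothionein Mt1, which binds zinc, fell from 1101, 704 and 971 FPKM to 216, 298 and 439.7 FPKM (log2 fold change -1.58, SE 0.28, limma adjusted p 0.018), a call lost without c-MYC/FOXO1AAA 2 and with all 10 libraries in the fit. Serine and one-carbon synthesis, which supplies nucleotides, had 7 lower and 2 higher of 30, among them Phgdh, its first enzyme, at 481, 424 and 497 FPKM in c-MYC and 142, 166 and 166 FPKM in c-MYC/FOXO1AAA (log2 fold change -1.56, SE 0.12, limma adjusted p 0.00025), a call lost with all 10 libraries in the fit. In the unfolded protein response 4 were higher and 5 lower of 36, and the 5 were 2 without c-MYC 2 or c-MYC/FOXO1AAA 2 and 3 without c-MYC 1 or c-MYC/FOXO1AAA 3. In autophagy and lysosome 5 were higher (3 without c-MYC 1) and 6 lower of 50, and in the circadian clock 4 were higher and 2 lower of 23. Growth hormone and IGF genes had 11 higher and 6 lower of 29, while the receptor Ghr, at 22.5, 30.2 and 20.98 FPKM in c-MYC and 20.1, 16.3 and 18.98 FPKM in c-MYC/FOXO1AAA, and Igf1, at 8.05, 6.35 and 7.98 FPKM in c-MYC and 8.59, 12.9 and 12.5 FPKM in c-MYC/FOXO1AAA, were not called.

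Calls were spread over the genome. Per chromosome 13.1% to 19.4% of the tested genes were higher and 8.5% to 16% lower, and the median log2 fold change lay between -0.13 (chromosome 19) and 0.13 (chromosome X). In windows of 15 neighboring tested genes, at most 9 were higher and at most 8 lower. One of the densest windows of higher genes, on chromosome 4 from 58995062 to 62150863 (GRCm38), held the urinary protein genes Mup3, Mup7, Mup9, Mup12, Mup20 and Mup21. Another, on chromosome 3 from 12975359 to 20009145, held the carbonic anhydrases Car2, Car3 and Car13 and ceruloplasmin, Cp. One of the densest windows of lower genes, on chromosome 12 from 103321142 to 103989957, held the cluster of Serpina genes.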

How the data were processed

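RNA of 10 mouse liver samples was sequenced, 4 NL, 3 c-MYC and 3 c-MYC/FOXO1AAA, and groups were taken from the labels. The authors deposited 1 table of log2 FPKM per gene, made with edgeR from counts by Ensembl ID, on GRCm38 per the labels (FastQC 0.11.7 is the other tool in the submitters' processing notes). The aligner and counter were not given in the sources used here. Of 17069 rows, 372 named no gene and were left out, 16697 remained, and 21 symbols had been turned into dates and 6 were duplicated. A level is 2 to the power of the deposited log2 value. The values carried a prior count of 2, and whole reads could be recovered for all 16697 genes within a tolerance of 0.02, of which the total gives the depth. The FPKM scaling differed between groups (factors 0.649 to 0.684 in NL, 1.26 to 1.29 in c-MYC and 1.45 to 1.502 in c-MYC/FOXO1AAA), which moves fold changes if composition differs.

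Log2 values of the 6 tumor libraries were fitted in R 4.3.3 with limma 3.58.1 (statmod 1.5.0), with trend and robust settings, and tested with treat against 1.5-fold without a further pseudocount. The study tested counts above a fold threshold, and limma was used here because the deposited values are on a log scale. In simulated data at this size 3 of 50 genes changed 2-fold and 50 of 50 changed 4-fold were called. So were 50 of 50 changed 8-fold and 49 of 49 changed 16-fold, with 0 false calls among 13526 genes. The unchanged genes were simulated with no difference at all, so a test above 1.5-fold could hardly call them. The changed genes were well read and far fewer than those called here, and all genes had the same spread. The shares found may thus differ from those in these libraries. Counting intervals and floors (95%, 3 reads) cover counting error only. The alternatives were 18 settings of scaling, filter, pseudocount, threshold, replicate block and left-out libraries.

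The genes and the 54 program, 14 marker and 2 check lists were chosen with earlier results of these data known. Named genes were the 12 largest changes in each direction, the 10 largest FPKM differences in each direction, and, per list, the 3 largest changes in each direction and the most abundant member, together with the FOXO and MYC families, Mcl1, Cenpm, sex and strain markers, and genes of the densest windows. A further 87 genes in the text, such as Myod1, Hnf4a and Vim, were chosen after their values were seen. Some genes are not reported here.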

Additional observations from a re-analysis of the deposited data

Results flagged for a closer look

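The only groups of 4 or more samples are NL, whose 4 libraries were tested for a value far from the others in each of the 13 genes and lists for which an NL range is given. None passed Dixon's 95% critical value, which chance exceeds in about 1 of 20 groups.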

How the results depend on the processing

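The counts of 2098 higher and 1660 lower genes stayed within 1.5 times under 32 of the 36 count and setting pairs tried. With a mean of at least 5 FPKM required, 962 genes were higher and 1176 lower of 8677 tested. Without a fold threshold 3780 were higher and 3552 lower, and at 2-fold 1503 were higher and 1046 lower. When 1 library was left out, 1844 to 2019 genes were higher and 1427 to 1727 lower. No gene called in both the main test and an alternative changed direction under any of the 18 alternatives. Of 479 named genes that were tested, 404 were called, 333 of these under every alternative, and 71 lost the call under at least 1. Of the named genes without a call 39 gained one under at least 1 alternative and 36 under none. Samples with the same replicate number did not deviate together (correlations over genes of 0.0225, -5e-04 and -0.0013), so the numbers gave no sign of pairing. Whether libraries shared a batch was not tested. With the replicate as a block 2062 genes were higher and 1641 lower, and no library correlated best with its own number. Scaling to the same FPKM total raised the share of higher among all calls from 55.8% to 63.5%, and quantile normalization gave 50.4%. Changes near 2-fold were mostly missed in simulated data, whose settings differed from these libraries. A gene without a call is thus not shown to be unchanged.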
